A study of Mus musculus with 6 samples.

Results

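Nuclear receptors outside the Ppar, Rxr, Hnf4, vitamin D, androgen, mineralocorticoid, Rev-erb and Nr4a1 group were followed on 6 arrays of mouse kidney RNA. The members were taken by name: symbols built like Nr1h3, plus the estrogen, estrogen-related, retinoic acid, RAR-related orphan, thyroid hormone and progesterone receptors. This gave 36 genes read by 82 probes, of 37325 genes and 56605 probes on the array. Of the 36 genes, 35 are receptors, and Nr2c2ap, a protein that binds the receptor Nr2c2, entered because its symbol begins with the name of that receptor.

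Nuclear receptors are transcription factors that bind DNA next to their target genes and exchange corepressor for coactivator complexes when a lipophilic ligand, such as a steroid, a thyroid hormone, retinoic acid, an oxysterol or a bile acid, occupies their pocket. Orphan members have no settled natural ligand and act mainly through their amount and their partners. Many of the non-steroid members pair with retinoid X receptors on sites built from the hexamer AGGTCA. In the kidney these receptors are known for roles in tubular transport, lipid handling, detoxification and the response to hormones of fasting.

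The study asked what the loss of Selenbp1 changes in the kidney. Left kidneys of males that were 8 weeks old and had fasted for 20 h were taken from 3 WT mice (replicates 2, 3, and 4) and 3 Selenbp1-KO mice (replicates 1, 2, and 3), and each RNA was hybridized to a one-color array. The labels give the strain C57BL/6J for both genotypes, and the methods name it for the WT mice. Per the methods, WT mice were purchased and the knockout line had been made earlier, so colony and genotype cannot be told apart. A kidney holds many cell types, so fewer cells of a type and less RNA per cell cannot be told apart either.

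All values below are log2 signals relative to the 75th percentile of the array, and differences are Selenbp1-KO minus WT on this scale. The 75th percentile intensity ranged from 477 to 751, between 51.8% and 55.5% of spots were well above background, and no spot was saturated. The targeted gene Selenbp1 was between 7.02 and 7.07 on the WT arrays and between 3.98 and 4.13 on the Selenbp1-KO arrays, so it followed every label. All 7 markers of the proximal tubule were well above background. The arrays lay on 1 slide. Its row 1 held WT replicates 2 and 3, and its row 2 held WT replicate 4 and all Selenbp1-KO replicates, so a fit with the row as a block compares the Selenbp1-KO mice with WT replicate 4 alone. A gene is called clearly detected here when all 3 WT arrays or all 3 Selenbp1-KO arrays read it well above background. Quantile normalization moved the median difference of all genes from 0.13 to 0.0037, and that of clearly detected genes from 0.02 to -0.0072.

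Of the 36 genes, 30 were clearly detected, a share of 83.3% against 52.0% of all genes tested. A gene is given below by its brightest probe. A call means an unadjusted p under 0.05 in limma, the threshold of the methods. By this rule 4 of 36 genes were called, 3 higher and 1 lower in Selenbp1-KO, where 8.00% of all genes were called (6.87% higher and 1.13% lower). Among the 30 clearly detected genes 2 were called, both higher, Nr2f6 and Nr1i3, where 5.79% of all such genes were called (4.52% higher and 1.28% lower). The lowest adjusted p of a member (Benjamini–Hochberg, over all probes) was 0.279, while 0.00540% of all genes passed that adjustment. With limma's trend and robust settings Nr2f6 passed (adjusted p = 0.0484), where 7536 of 56097 probes had an unadjusted p under 0.05. Without WT replicate 4 Nr1i3 and a Rarg probe that was not well above background passed (adjusted p = 0.0490 for both). In that fit 17585 of 56097 probes had an unadjusted p under 0.05, 16597 of them higher. An exact permutation test of 3 mice against 3 could not give less than 0.1 for any single gene.

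Other settings called other members. Under quantile normalization 7 of 36 were called (9.10% of all genes), Nr2f6, Nr1i3 and Nr1h3 higher and Nr5a2, Rara, Rora and Esrrg lower. With the slide row as a block 2 of 36 were called (6.08% of all genes), Rora and Nr4a3, neither of which was called by 75th percentile scaling without the block. The groups did not overlap for 9 of 36 genes against 14.1% of all genes, and for 7 of the 30 against 19.0% of all clearly detected genes.

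The differences of the 30 genes were small. They ran from -0.30 to 0.58, which is 0.81-fold to 1.49-fold, with a median of -0.04, and 18 of them were within 1 standard error of 0. By sign, 14 were higher and 16 lower. Under quantile normalization 13 were higher and 17 lower, with a change of sign in Nr2e3 alone. With the slide row as a block 16 were higher and 14 lower.

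**Figure D1:**
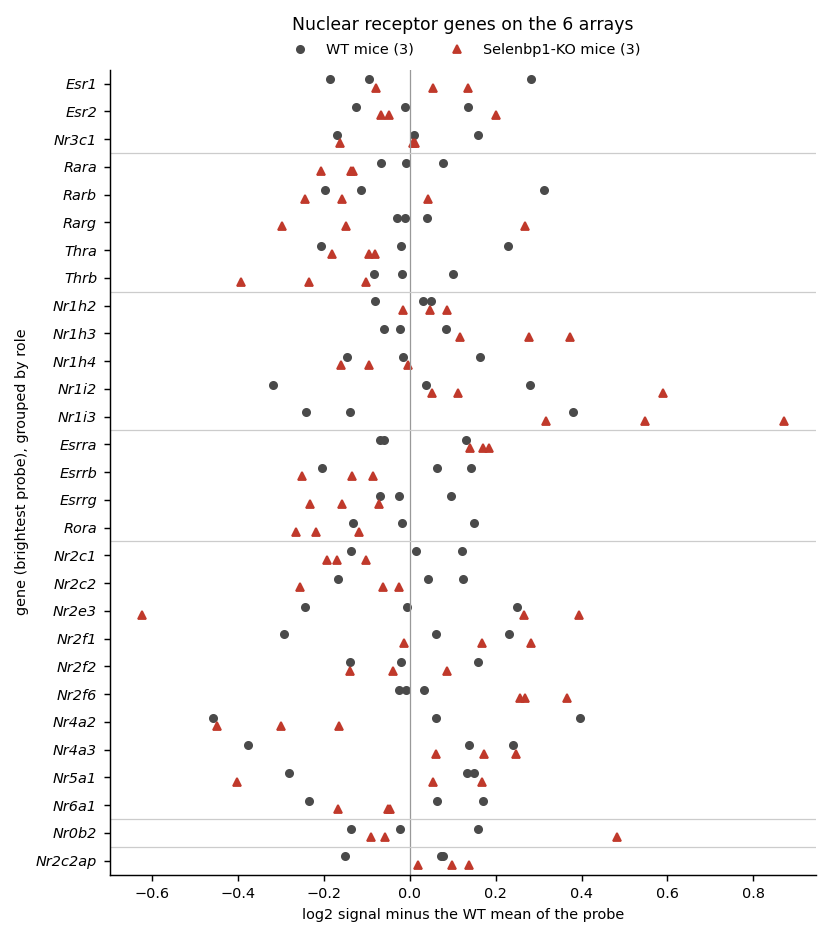
Log2 signal of the brightest probe of 29 clearly detected genes, minus the WT mean of that probe, on each array (circles, 3 WT mice; triangles, 3 Selenbp1-KO mice); lines separate the roles of the receptors. Nr2f6, Nr1h3 and Esrra lie to the right without overlap, Thrb, Rara and Esrrg lie to the left without overlap, and the other genes overlap.

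The array probes are the sequences that carry these results. Shown are the first 30 of the 60 bases of each probe, 5′ to 3′ as given in the files, for Nr2f6 and Nr1i3, the clearly detected genes that were called, and for Nr1h3 and Thrb, where a pair of probes annotated to the same transcript can be set side by side.
Nr2f6 A_51_P184353: tgtcatgggtatctggaaaggccactgcag
Nr2f6 A_55_P2722453: ttagagaccctgagatgtgagctgaggaga
Nr1i3 A_51_P358256: aagagaagagatagatcagctacaagagga
Nr1h3 A_66_P120249: aacgttgtataccatctgaagaccttgttg
Nr1h3 A_52_P546421: gactgtttcaccgtgtcctttgtgttggcc
Thrb A_52_P532559: aaatcattctcttctaatcttgtccagact
Thrb A_51_P388835: ggtgtcattgcattccacctgtagcattct
The 2 Nr1h3 probes start 185 bases apart and the 2 Thrb probes 2579 bases apart in the genome. The first Nr2f6 probe is annotated to a RefSeq transcript (NM_010150), and the second, which starts 919 bases away, to an Ensembl transcript (ENSMUST00000156270).

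Nr2f6 (EAR-2), an orphan receptor of the COUP-TF family that mostly represses transcription, was the clearest of the well-measured genes. Its probe (chromosome 8 of mm9, 73898098 to 73898157) gave 4.56, 4.57, and 4.61 in WT replicates 2, 3, and 4. The Selenbp1-KO values were 4.95, 4.85, and 4.84 in replicates 1, 2, and 3. Every Selenbp1-KO mouse lay above every WT mouse, and the WT mice differed by less than 0.1 among themselves. The difference was 0.30 (standard error 0.09), or 1.23-fold (limma, unadjusted p = 0.0199, adjusted p = 0.279). It was 0.22 under quantile normalization (unadjusted p = 0.000715) and 0.26 within the slide row (unadjusted p = 0.0806). Leaving out WT replicate 2 (0.29), WT replicate 3 (0.29) or Selenbp1-KO replicate 1 (0.26) ended the call, with unadjusted p = 0.0689, unadjusted p = 0.0552 and unadjusted p = 0.0842. The second probe, far dimmer though well above background on every array, did not share the pattern. It gave -4.46, -4.30, and -3.89 in WT and -4.02, -4.17, and -4.35 in Selenbp1-KO, with overlap and a difference of 0.04 (standard error 0.18, adjusted p = 0.944). The mean of both Nr2f6 probes, which weighs the bright and the dim probe alike, differed by 0.17 (unadjusted p = 0.240), which ended the call.

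Nr1i3, the constitutive androstane receptor (CAR), which induces detoxification enzymes, was dim but well above background on all 6 arrays. Its probe (chromosome 1 of mm9, 173147776 to 173147835) gave -4.16, -4.06, and -3.54 in WT and -3.60, -3.05, and -3.37 in Selenbp1-KO. WT replicate 4 lay above Selenbp1-KO replicate 1, so the groups overlapped. The difference was 0.58 (standard error 0.22, unadjusted p = 0.0400, adjusted p = 0.279), and it was 0.20 within the slide row (unadjusted p = 0.439). Leaving out 1 array at a time gave 0.43 to 0.77, and the call was lost without WT replicate 2, WT replicate 3, Selenbp1-KO replicate 2 or Selenbp1-KO replicate 3, where the unadjusted p was 0.119, 0.108, 0.118 and 0.0793. The second Nr1i3 probe was well above background on 1 WT array and on no Selenbp1-KO array, and it gave -7.47, -4.65, and -6.26 in WT and -5.81, -6.31, and -6.49 in Selenbp1-KO. With the mean of both probes the difference was 0.25 and the call was lost (unadjusted p = 0.515), as it was by the methods' t-test.

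Among the other receptors for sterols, bile acids and foreign compounds, Nr1h3, the oxysterol receptor LXRα, had the same pattern on both of its probes. The brightest (chromosome 2 of mm9, 91024250 to 91024309) gave 3.03, 3.00, and 3.14 in WT and 3.43, 3.17, and 3.33 in Selenbp1-KO. The second (91024435 to 91024494) gave 2.07, 2.09, and 2.10 in WT and 2.50, 2.19, and 2.34 in Selenbp1-KO. On both, every Selenbp1-KO mouse lay above every WT mouse, with replicate 1 the highest and replicate 2 the lowest of the Selenbp1-KO mice. The difference was 0.26 and 0.26 (standard errors 0.11 and 0.12), and both missed the threshold (unadjusted p = 0.0647 and unadjusted p = 0.0667). Under quantile normalization both passed it, at 0.23 (unadjusted p = 0.0162) and 0.24 (unadjusted p = 0.0263). Within the slide row the differences were 0.17 and 0.24 (unadjusted p = 0.297 and unadjusted p = 0.189).

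LXRα is known to be abundant in macrophages, and macrophage markers were higher in the same mice. Of 9 markers, 7 were called higher and all 9 had a positive difference, with a median of 0.58. Their summed log2 level ran from 3.95 to 4.25 in WT and from 4.42 to 4.55 in Selenbp1-KO, and each of the 9 was clearly detected. Markers of other cells were higher too: all 6 of red blood cells were called (median 0.94), as were 2 of 6 of fibroblasts and mural cells (Col1a1 and Dcn, median 0.33) and 1 of 8 of lymphocytes (Cd3e, 4 of the 8 clearly detected). All 5 of fat tissue had a positive difference without a call (median 0.78). In limma without quantile normalization or block, none of the markers of distal nephron, endothelium and proximal tubule was called. Of those of the glomerulus 1 of 4 was called, higher. Under quantile normalization Slc26a4 of the distal nephron was called lower (-0.22, unadjusted p = 0.0167). The part of any of these cells in the Nr1h3 difference was not tested. Of 14 LXR target genes, among them the cholesterol exporter Abca1 and the lipogenic factor Srebf1, none was called in limma with either scaling. The 13 clearly detected had a median difference of 0.0031, and it was -0.02 under quantile normalization.

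Nr1h2, the widely expressed LXRβ, ran from 3.76 to 3.89 in WT and from 3.82 to 3.93 in Selenbp1-KO, a difference of 0.04 (standard error 0.10, adjusted p = 0.879). A further clearly detected probe differed by 0.03. Nr1h4, the bile acid receptor FXR, ran from 4.53 to 4.84 in WT and from 4.52 to 4.67 in Selenbp1-KO, a difference of -0.09 (adjusted p = 0.756). None of 7 FXR target genes was called in limma without quantile normalization or block. Abcb11 and Fgf15 were not well above background on any array, and the other 5 had a median of -0.17 (-0.18 under quantile normalization). With quantile values Slc51a, a subunit of a bile acid exporter, and Abcb4, a phospholipid exporter, were called lower.

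Nr1i2, the pregnane X receptor (PXR), gave -1.57, -1.22, and -0.98 in WT and -1.20, -1.14, and -0.67 in Selenbp1-KO. WT replicate 4 was the highest WT mouse, and the difference of 0.25 (adjusted p = 0.588) was -0.03 within the slide row. PXR and CAR share many target genes. Of 12 tested, 1 was called lower and 1 higher. Under quantile normalization Slco1a4 was called lower as well (-0.30, unadjusted p = 0.0302). The 9 clearly detected had a median of -0.29, which was -0.18 within the slide row, and 7 of them had a negative difference. Within the slide row Cyp2b9 and Cyp2b10 moved from -0.39 each to 0.57 and 0.37, and the others kept their sign.

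Abcb1b, which encodes a P-glycoprotein drug exporter, was the target called lower. It gave 0.06, 0.08, and 0.09 in WT and -0.34, -0.42, and -0.28 in Selenbp1-KO, with no overlap. It fell by 0.42 (standard error 0.10, unadjusted p = 0.00458, adjusted p = 0.279), and the difference was -0.43 within the slide row (unadjusted p = 0.0178). The call held whichever single array was left out. The gene called higher, the monooxygenase Cyp3a13 (unadjusted p = 0.0436), was not well above background on any array, so no fold is given.

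**Figure D2:**
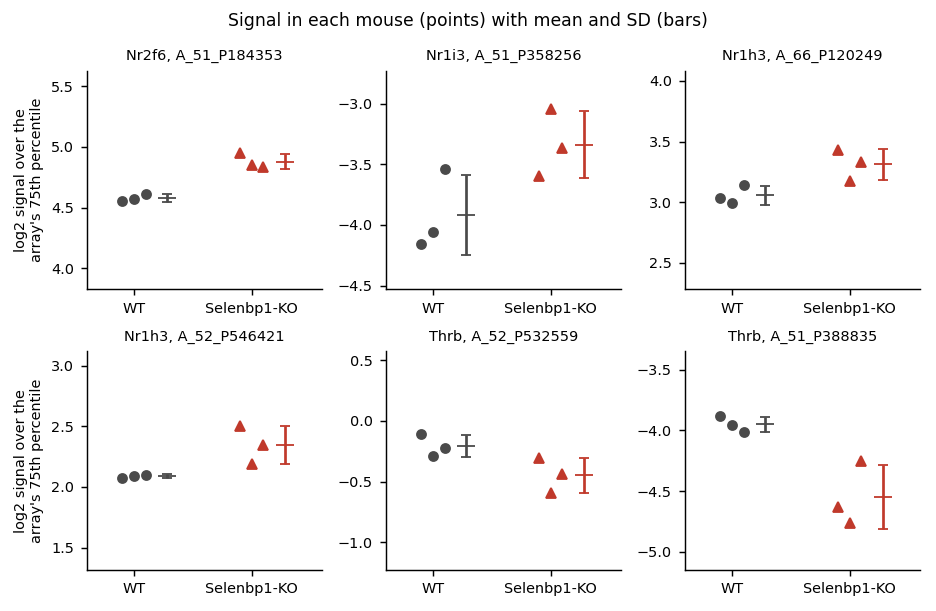
Log2 signal over the array's 75th percentile in each mouse for 6 probes of 4 receptor genes (circles, WT; triangles, Selenbp1-KO; bars beside them, mean and SD of 3 mice); all panels span the same number of log2 units. Nr2f6 and both Nr1h3 probes are higher in Selenbp1-KO without overlap, Nr1i3 is higher with overlap, and both Thrb probes are lower without overlap.

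The receptors for thyroid hormone and retinoic acid all had a negative difference by their brightest probes, 5 of 5. None was called in limma without quantile normalization or block. The differences ran from -0.24 to -0.06. Within the slide row 3 of 5 were negative, with Thra (0.09) and Rarb (0.08) on the other side of 0.

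Thrb, the thyroid hormone receptor β, had the largest of these differences in size. Its brightest probe (chromosome 14 of mm9, 18868800 to 18868859) gave -0.10, -0.29, and -0.22 in WT and -0.31, -0.60, and -0.44 in Selenbp1-KO, a difference of -0.24 (standard error 0.12, unadjusted p = 0.0903, adjusted p = 0.296). The second (18866221 to 18866280) gave -3.88, -3.96, and -4.01 in WT and -4.63, -4.76, and -4.25 in Selenbp1-KO. No Selenbp1-KO mouse reached a WT mouse on either probe. The signal of the second probe fell by 0.60 (standard error 0.16, unadjusted p = 0.00844, adjusted p = 0.279), the lowest unadjusted p among the 82 probes, and its call held whichever single array was left out. It was near background, well above it on 3 WT and 2 Selenbp1-KO arrays, and with a normexp background correction the difference was -0.07 (unadjusted p = 0.510). Within the slide row the differences were -0.23 on the brightest probe (unadjusted p = 0.240) and -0.54 on the second (unadjusted p = 0.0646).

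Thra, the more widely expressed receptor α, had no single direction. Its brightest probe ran from 2.20 to 2.63 in WT and from 2.22 to 2.32 in Selenbp1-KO (difference -0.12, adjusted p = 0.703), while 2 further probes differed by 0.14 and 0.03. WT replicate 4 was the lowest array on both of these, and within the slide row they were higher by 0.47 (unadjusted p = 0.00973) and 0.38 (unadjusted p = 0.0432). Of 7 genes of thyroid hormone supply and 5 receptor target genes, none was called in limma with either scaling, and the 4 and 5 clearly detected ones had median differences of -0.03 and -0.05.

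Rara, the most widely expressed retinoic acid receptor, gave 2.40, 2.26, and 2.32 in WT and 2.19, 2.12, and 2.19 in Selenbp1-KO. The groups did not overlap. The difference of -0.16 (standard error 0.10, unadjusted p = 0.156) missed the threshold and passed it under quantile normalization (-0.17, unadjusted p = 0.0169). A second Rara probe differed by 0.05. Rarb ran from 0.20 to 0.71 in WT and from 0.16 to 0.44 in Selenbp1-KO (difference -0.12, adjusted p = 0.763). Rarg ran from 1.44 to 1.51 in WT and from 1.17 to 1.74 in Selenbp1-KO (difference -0.06, adjusted p = 0.892), with Selenbp1-KO replicate 2 the highest array and replicate 3 the lowest.

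Without the block the steroid receptors differed least by their brightest probes, with differences from -0.05 to 0.04 for the 3 clearly detected. Within the slide row all 3 were negative, Esr1 by -0.24, Nr3c1 by -0.21 and Esr2 by -0.11. Nr3c1, the glucocorticoid receptor, gave 2.91, 2.73, and 3.06 in WT and 2.91, 2.74, and 2.91 in Selenbp1-KO. The ranges overlapped almost in full, with a difference of -0.05 (standard error 0.13, adjusted p = 0.887) and -0.17 on a second probe. None of 8 glucocorticoid target genes was called in limma without quantile normalization or block. Of the 8 genes, 7 had a negative difference, and the median was -0.11. Of these, Tsc22d3, which encodes the glucocorticoid-induced leucine zipper, was called lower under quantile normalization (-0.16, unadjusted p = 0.0259).

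Among 8 genes of glucocorticoid supply and receptor chaperones 1 was called, Hsd11b1, the enzyme that regenerates active glucocorticoid inside cells. Under quantile normalization Hsp90aa1 (-0.27, unadjusted p = 0.00272) and Hsp90ab1 (-0.19, unadjusted p = 0.0159) were also called, both lower. Hsd11b1 gave 3.71, 3.58, and 3.26 in WT and 3.86, 4.17, and 4.12 in Selenbp1-KO, so that all Selenbp1-KO mice lay above all WT mice. It rose by 0.53 (standard error 0.16, unadjusted p = 0.0164, adjusted p = 0.279) and by 0.79 within the slide row (unadjusted p = 0.00658). Leaving out Selenbp1-KO replicate 2 or 3 ended the call (unadjusted p = 0.0535 and unadjusted p = 0.0530).

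Esr1, the estrogen receptor α, ran from -0.18 to 0.29 in WT and from -0.07 to 0.15 in Selenbp1-KO, a difference of 0.04 (adjusted p = 0.930) that was -0.24 within the slide row. It has 7 probes, 3 of them clearly detected, and those 3 differed by 0.04 to 0.47. A further probe, A_51_P474658, was called (unadjusted p = 0.0114) but was not well above background on any array, so no fold is given. Probe A_55_P2030883, well above background on 1 WT array, differed by -0.69 (standard error 0.32, unadjusted p = 0.0776).

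Esr2, the estrogen receptor β, was well above background on all 6 arrays by 1 probe and on none by the other, although both are annotated to the same transcript (NM_207707). The first 30 bases of each are shown for that reason.
Esr2 A_55_P2008197: ttaagagtgccacttcccatgggccaagca
Esr2 A_52_P156314: gactgtagaacggtgtggtcatcaaatcga
They lie on chromosome 12 of mm9, at 77221426 to 77221485 and at 77222311 to 77222370. The detected probe gave 0.93, 0.81, and 1.08 in WT and 0.87, 1.14, and 0.89 in Selenbp1-KO, with overlap and a difference of 0.03 (standard error 0.13, adjusted p = 0.936). Pgr, the progesterone receptor, was not well above background on any array by any of its 4 probes. Of 7 genes that make or inactivate estrogen, Hsd17b1 (unadjusted p = 0.0398) and Sult1e1 (unadjusted p = 0.0377) were called higher, and neither was clearly detected.

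Among the orphan receptors of energy metabolism and rhythm, Esrra, the estrogen-related receptor α that drives mitochondrial genes, gave 4.81 and 4.80 in WT replicates 2 and 3, a little more in WT replicate 4, and 5.04, 5.01, and 5.05 in Selenbp1-KO. The groups did not overlap, but WT replicate 4 lay just under the lowest Selenbp1-KO mouse, and the difference of 0.16 (standard error 0.10, adjusted p = 0.429) was 0.03 within the slide row. A second, far dimmer Esrra probe differed by -0.20 (standard error 0.23). Esrrg, which is known from tissues of high oxidative demand, gave 2.16, 2.21, and 2.33 in WT and 2.08, 2.00, and 2.16 in Selenbp1-KO. The lowest WT mouse was just above the highest Selenbp1-KO mouse, and the difference was -0.15 (unadjusted p = 0.192), -0.16 under quantile normalization (unadjusted p = 0.0252) and -0.14 on a second probe. Esrrb, known from stem cells and the inner ear, ran from 2.25 to 2.60 in WT and from 2.20 to 2.37 in Selenbp1-KO (difference -0.16, adjusted p = 0.567). None of 9 ERR target genes of the citric acid cycle, fatty acid oxidation and respiration was called in limma with either scaling, and their median was 0.09 (-0.02 under quantile normalization).

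Rora, which activates clock genes through ROR elements, gave 3.33, 3.21, and 3.50 in WT and 3.08, 3.13, and 3.23 in Selenbp1-KO. Of the WT mice only replicate 3 lay within the Selenbp1-KO range. The difference was -0.20 (standard error 0.12, unadjusted p = 0.137), -0.23 under quantile normalization (unadjusted p = 0.0376) and -0.35 within the slide row (unadjusted p = 0.0456). On the second probe it was -0.29 (unadjusted p = 0.0768). Among 5 clock genes with ROR elements, Npas2 was called higher (unadjusted p = 0.0490) while not well above background on any array, nor was Cry1. The clearly detected Arntl, Clock and Nfil3 differed by 0.36, -0.03 and 0.05, and within the slide row by 1.05, -0.13 and -0.12.

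**Figure D3:**
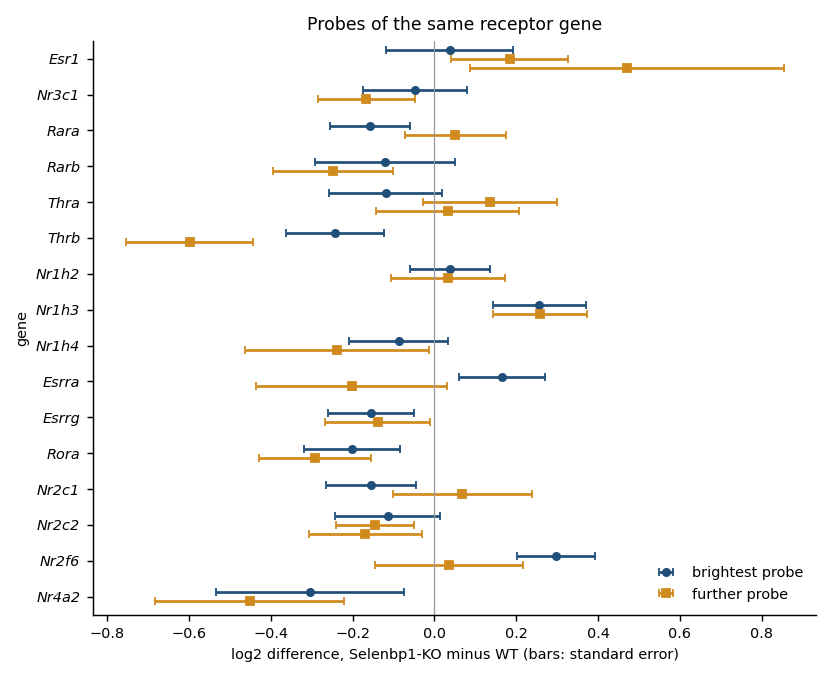
Log2 difference, Selenbp1-KO minus WT, with its standard error, for 16 genes that have more than 1 clearly detected probe (circles, brightest probe; squares, further probes). The probes of Nr1h3, Thrb, Rora, Esrrg and Nr4a2 lie on the same side of 0, those of Esrra, Rara, Thra and Nr2c1 on both sides, and the probes of Nr2f6 lie apart, one of them near 0.

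For 17 genes more than 1 probe was clearly detected. In 13 of them all such probes had the same sign, and in 4 (Esrra, Nr2c1, Rara and Thra) they did not. The median spread between the probes of a gene was 0.15, as large as many of the differences. Nr1h3 had the smallest spread (0.0014) and Esr1 the largest (0.43). Probes of a gene share the arrays and mice, so they are not further replicates. Among probes well above background on at most 1 array, a sign other than that of the brightest probe was found for probes of Esr1, Esrrg (0.10), Nr1i3 (-0.08), Nr2c1 (0.36), Nr5a1, Nr6a1 (0.37), Rarb (0.40 and 0.40), Rarg (0.0038 and 0.58), Rora (0.04) and Thra (0.01).

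The testicular receptors Nr2c1 and Nr2c2, which act at direct repeats of the hexamer named above, had differences of -0.15 (adjusted p = 0.494) and -0.11 (adjusted p = 0.690). All 3 Nr2c2 probes had a negative difference, from -0.17 to -0.11. On 1 of them the groups did not overlap, with -0.28, -0.28, and -0.30 in WT and -0.43, -0.51, and -0.37 in Selenbp1-KO (unadjusted p = 0.176). A further, dimmer Nr2c1 probe differed by 0.07. Nr2c2ap, the partner of Nr2c2, differed by 0.08 (adjusted p = 0.742).

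Nr2f1 and Nr2f2 are the COUP transcription factors related to Nr2f6, known from the nervous system and from veins and stroma. Nr2f1 ran from -2.62 to -2.10 in WT and from -2.34 to -2.05 in Selenbp1-KO (difference 0.15, adjusted p = 0.702). Nr2f2 ran from 2.10 to 2.40 in WT and from 2.11 to 2.33 in Selenbp1-KO (difference -0.03, standard error 0.13, adjusted p = 0.927). Both overlapped between the genotypes, and whether either difference departs from that of Nr2f6 was not tested.

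Nr4a2 and Nr4a3 are relatives of the immediate early gene Nr4a1. Nr4a2 gave -2.83, -3.68, and -3.16 in WT and -3.67, -3.39, and -3.52 in Selenbp1-KO, a difference of -0.30 (standard error 0.23, adjusted p = 0.523), and -0.45 on the second probe. Within the slide row the Nr4a2 differences were -0.37 on the brightest probe and -0.02 on the second. Nr4a3 gave -3.85, -3.74, and -4.36 in WT and -3.81, -3.74, and -3.92 in Selenbp1-KO. WT replicate 4 was the lowest Nr4a3 array, and the difference of 0.16 (unadjusted p = 0.418) was 0.54 within the slide row (unadjusted p = 0.0116). Of 6 immediate early genes none was called in limma without quantile normalization or block. Their median was -0.24, and it was 0.14 within the slide row. Ier2 was called higher under quantile normalization (0.19, unadjusted p = 0.0462).

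Nr6a1, germ cell nuclear factor, and Nr2e3, known from the retina, overlapped between the genotypes, with differences of -0.09 (adjusted p = 0.786) and 0.01 (adjusted p = 0.989). Nr0b2, the small heterodimer partner, which lacks a DNA-binding domain and represses other receptors, ran from -4.58 to -4.29 in WT and from -4.54 to -3.96 in Selenbp1-KO (difference 0.11, adjusted p = 0.808). Only Selenbp1-KO replicate 1 lay above the WT range of Nr0b2.

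Nr5a1, steroidogenic factor 1, is known from the adrenal cortex and gonads, and it was well above background on all 6 kidney arrays. It gave -2.68, -2.69, and -3.11 in WT and -3.23, -2.66, and -2.77 in Selenbp1-KO, with overlap and a difference of -0.06 (standard error 0.20, adjusted p = 0.912) that was 0.22 within the slide row. Its second probe, which no array read well above background, differed by 0.26 (standard error 0.29). Markers of the adrenal cortex were read beside it. None of 9 was called in limma with either scaling. Cyp11a1, Cyp11b1, Cyp11b2 and Mc2r, which serve steroid production in adrenal cells, were not well above background on any array. The other 5, Cyp21a1, Star, Hsd3b1, Mrap and Akr1b7, were clearly detected, and their differences ran from 0.03 (Star) to 0.89 (Mrap) with a median of 0.19, which was -0.0015 within the slide row. Their part in the Nr5a1 values was not tested.

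The remaining 6 genes, Nr0b1, Nr1h5, Nr2e1, Nr5a2, Pgr and Rorb, were not clearly detected. Nr5a2, liver receptor homolog 1, gave -5.20, -5.27, and -5.29 in WT and -7.12, -6.92, and -5.59 in Selenbp1-KO, without overlap, and group means of -5.25 and -6.54. It was called lower (unadjusted p = 0.0181, adjusted p = 0.279). It was well above background on 2 WT arrays and on no Selenbp1-KO array, and the bound that the lowest reliable signal of the Selenbp1-KO arrays allows is under 1-fold, so no fold is given. With a normexp background correction the difference was 0.03 (unadjusted p = 0.80). Leaving out Selenbp1-KO replicate 1 or 2 ended the call (unadjusted p = 0.0517 and unadjusted p = 0.0605).

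Nr2e1, the tailless homolog known from neural stem cells, was called higher (unadjusted p = 0.0376) with surrogate values on 5 arrays, and under quantile normalization it was not (unadjusted p = 0.175). The call was also lost without WT replicate 2, WT replicate 3, Selenbp1-KO replicate 1 or Selenbp1-KO replicate 2, with an unadjusted p of 0.103, 0.109, 0.113 and 0.0812. Nr0b1, Dax1, had its highest value, -5.02, in Selenbp1-KO replicate 2 and was not well above background there either.

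A surrogate value stands in where the scanner software found a spot not above its background. On the scale used here its median was between -7.57 and -7.05 on WT arrays and between -7.12 and -6.81 on Selenbp1-KO arrays, a difference of 0.38. The 9 member probes with a surrogate on all 6 arrays differed by 0.36 to 0.40, about as much as the surrogates themselves, and all 18 with a surrogate on at least 5 arrays had a positive difference. Over all 82 probes 8 were called, against 7.98% of all probes tested. Of these 8, 5 had a surrogate on at least 1 array: Nr5a2, Nr2e1 and further probes of Esr1, Nr1h2 and Rarg.

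**Figure D4:**
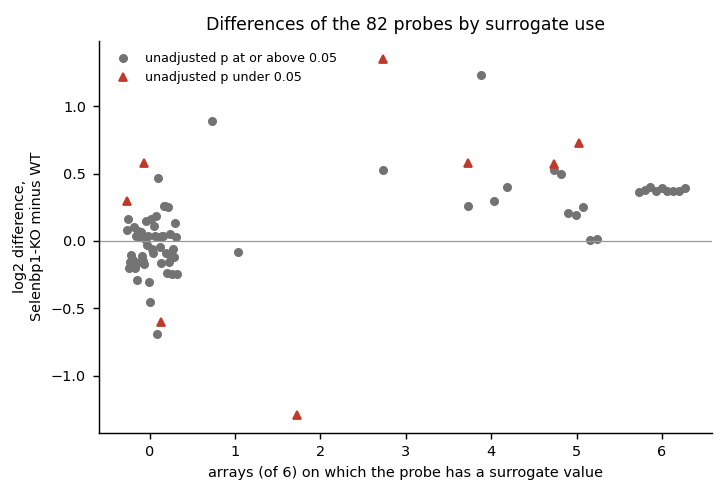
Log2 difference, Selenbp1-KO minus WT, of each of the 82 probes by the number of arrays on which it holds a surrogate value (circles, p at or above 0.05; triangles, p under 0.05; points are spread sideways within a column). Probes read on all arrays scatter around 0, and the 9 with a surrogate on all 6 arrays sit together at 0.36 to 0.40.

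The cofactors through which these receptors act were also read. In limma without quantile normalization or block, 1 of 13 coactivators was called, lower, and 11 had a negative difference. Their median was -0.16, and it was -0.19 within the slide row, where Crebbp moved from 0.10 to -0.39. Under quantile normalization Ncoa6 was called lower as well (-0.23, unadjusted p = 0.0231), where 9.10% of all genes were called. Ep300, a histone acetyltransferase, was the coactivator called without quantile normalization or block. It gave -0.86, -0.71, and -0.85 in WT and -1.04, -1.10, and -1.30 in Selenbp1-KO, without overlap. Ep300 fell by 0.34 (standard error 0.12, unadjusted p = 0.0264, adjusted p = 0.279), and its difference was -0.30 within the slide row (unadjusted p = 0.121). The call was lost without WT replicate 2, WT replicate 3 or Selenbp1-KO replicate 3, with an unadjusted p of 0.0542, 0.0830 and 0.0951.

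Of 11 corepressors none was called in limma without quantile normalization or block, while 10 had a negative difference, with a median of -0.14. Of single clearly detected genes 19.0% did not overlap. The summed log2 level of the coactivators overlapped, from 5.96 to 6.14 in WT and from 5.94 to 5.97 in Selenbp1-KO. That of the corepressors did not, from 4.89 to 4.96 in WT and from 4.79 to 4.82 in Selenbp1-KO. Under quantile normalization 4 of 11 were called lower, Tbl1xr1, Nrip1, Lcor and Sin3a, where 9.10% of all genes were called. Within the slide row the corepressor median was -0.10, and the difference of Sin3a moved from -0.31 to -0.10. The medians of both cofactor lists stand beside 0.02 over all clearly detected genes, of which 8816 of 19265 had a negative difference.

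In limma without quantile normalization or block, the 14 receptors of the superfamily that the naming rule left out gave no call. They had 5 positive and 9 negative differences and a median of -0.08. The median was -0.11 within the slide row, where these receptors ran from -0.51 (Hnf4g) and -0.49 (Nr1d2) to 0.86 (Nr4a1). Under quantile normalization 2 of them were called lower, Ppara (-0.35) and Rxra (-0.23). Rxra is a common partner of the thyroid hormone, retinoic acid, LXR, FXR, PXR and CAR receptors. It gave 5.29, 5.27, and 5.28 in WT and 5.10, 5.16, and 5.17 in Selenbp1-KO, without overlap (difference -0.14, standard error 0.09, unadjusted p = 0.179).

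**Figure D5:**
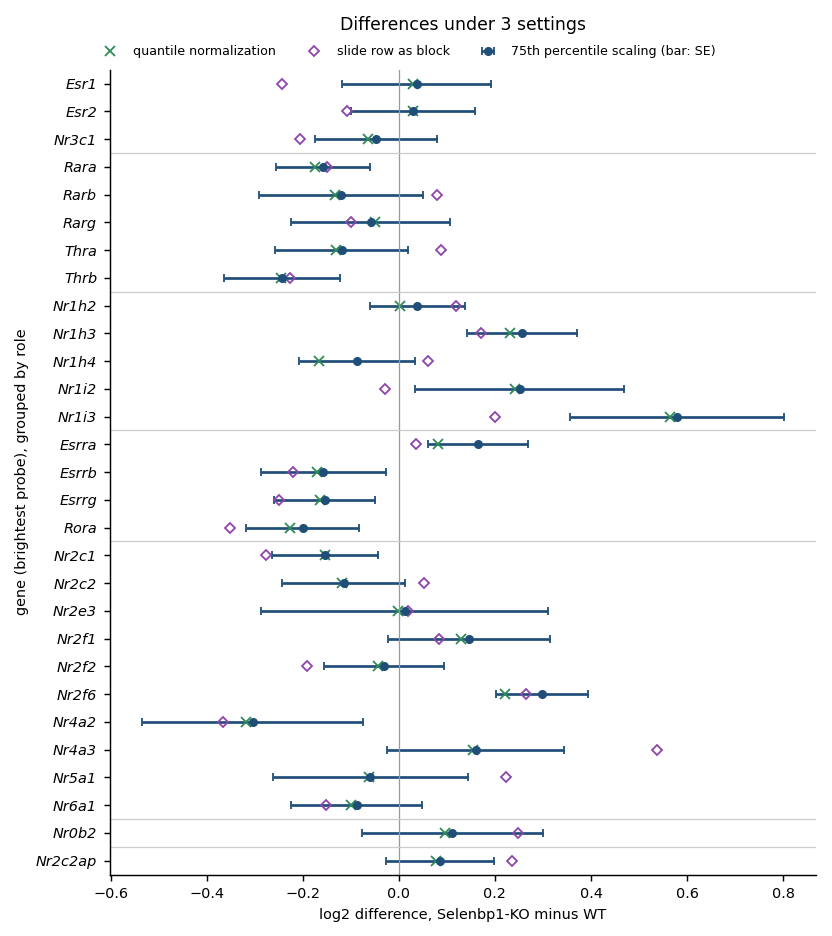
Log2 difference, Selenbp1-KO minus WT, of 29 clearly detected genes with 75th percentile scaling (circles, bars are standard errors), with quantile normalization (crosses) and with the slide row as a block (diamonds), grouped by role. Crosses stay near the circles and diamonds move farther, among others for Nr4a3, Nr1i3, Esr1, Nr5a1 and Nr1i2.

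The AGGTCA hexamer was looked for in the promoters of the members. RefSeq promoter windows of 300 bases (GRCm38.p6) matched 32 of the 36 genes with 47 windows, and 7 of these (14.9%) held AGGTCA on either strand, against 16.3% of 32851 windows of all genes. The 7 were windows of Nr5a2, Nr6a1, Nr1h4, Rara, Thrb, Rarg and Nr0b1. A match describes the letters of a window and is not a site.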

How the data were processed

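Kidney RNA of 3 WT and 3 Selenbp1-KO mice was labeled with 1 dye and hybridized to 6 Agilent arrays. The authors deposited scanner output of Feature Extraction (version 10.7.1.1 per the file headers, 9.5.1.1 per the labels). It holds a linear intensity, from which background and spatial trend were subtracted, with a surrogate for spots not above background, and a deposited p-value of each spot against its background. A further table from the authors, with quantile normalized intensity, served as an alternative.

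Each log2 intensity was taken minus the log2 75th percentile of the array's non-control spots. Outlier spots (44 to 73 on an array) were left out, and spots of a probe were averaged. The 56097 probes whose detection p was under 0.05 on any array entered limma (version 3.58.1, R version 4.3.3, data.table version 1.17.8), with two-sided moderated tests and calls at the methods' threshold of 0.05 without adjustment. Benjamini–Hochberg values cover all probes. A gene is its brightest probe over the 6 arrays. Values were given for members clearly detected or called and for further probes that differed in call or sign. They were also given for clearly detected genes called in the lists of receptor pathways. Calls among cell markers were counted, and only some of these markers were named. Genes called under another setting only, and members of lists given as examples, were named after their values were seen. Results of 1 clearly detected member, which stays in the counts, and of 1 related list of receptor pathways are not reported here. List medians are those of clearly detected genes where a list held others. Probe positions are on mm9. The members and lists were chosen with earlier results of these data known. The fit was tested on simulated data. The number of arrays limits the precision. A limma p-value sets the difference against the spread between these mice after that spread is drawn toward a value shared by all probes tested. For a probe with little spread it therefore reflects the shared value too.

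The alternatives were normexp background correction (offset 50), quantile and median scaling, stricter and no filtering, outlier spots kept, limma's trend and robust settings (statmod version 1.5.0), the methods' t-test, slide row or replicate number as block, single arrays left out, and the average over a gene's probes.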

Additional observations from a re-analysis of the deposited data

How the results depend on the processing

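Of the 36 genes, 4 were called. This number was 7 with quantile normalization, 7 with the authors' table, 8 with limma's trend and robust settings, 2 with the slide row as a block and 1 to 5 with 1 array left out (1 without WT replicate 2, 2 without WT replicate 3, Selenbp1-KO replicate 1 or Selenbp1-KO replicate 2, and 5 without WT replicate 4 or Selenbp1-KO replicate 3). Over the whole array 4479 probes were called (3632 higher and 847 lower), against 14616 with median scaling (13681 higher and 935 lower), 2841 among clearly detected probes, 7536 with limma's trend and robust settings and 2024 to 17585 with 1 array left out, fewest without WT replicate 2 and most without WT replicate 4. The split of calls was 2527 higher and 2170 lower with quantile normalization, 5970 higher and 291 lower with normexp and 1361 higher and 2290 lower with the slide row as a block. The targeted gene Selenbp1 stayed between -3.03 and -2.92 in all settings.

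Some differences changed sign. The cause was not tested. Nr2e3 was -0.0022 with quantile normalization, -0.0024 in the authors' table and -0.0041 with median scaling. With normexp, Nr5a1 (0.069) and Nr5a2 (0.030) changed sign. The slide row as a block turned Nr2c2 (0.053), Nr5a1 (0.22), Esr1 (-0.24), Esr2 (-0.11), Nr1h4 (0.060), Nr1i2 (-0.029), Rarb (0.078), Thra (0.089), Nr2c1 A_55_P2523444 (-0.044), Nr2f6 A_55_P2722453 (-0.29), Esr1 A_55_P2716924 (-0.17) and Rara A_55_P2095342 (-0.042). The mean over all probes of a gene turned Esrra (-0.019), Nr2c1 (0.093), Nr5a1 (0.098), Nr6a1 (0.14), Rarb (0.11), Rarg (0.18) and Thra (0.016). With 1 array left out, differences on both sides of 0 were found for Nr2e3 (-0.18 to 0.33), Nr2f1 (-0.00015 to 0.26), Nr2f2 (-0.10 to 0.049), Nr4a3 (-0.028 to 0.28), Nr5a1 (-0.20 to 0.11), Nr0b2 (-0.074 to 0.21), Esr1 (-0.056 to 0.18), Esr2 (-0.058 to 0.097), Nr3c1 (-0.13 to 0.032), Nr1h2 (-0.0016 to 0.066), Rarb (-0.22 to 0.036), Rarg (-0.22 to 0.060), Nr2c1 A_55_P2523444 (-0.089 to 0.20), Nr2f6 A_55_P2722453 (-0.084 to 0.20), Nr1h2 A_66_P112009 (-0.058 to 0.13), Rara A_55_P2095342 (-0.030 to 0.13), Thra A_52_P666930 (-0.031 to 0.22) and Thra A_66_P102879 (-0.14 to 0.16).

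WT and Selenbp1-KO samples shared the replicate numbers 2 and 3, and the labels do not say that a number pairs mice. Deviations of same-numbered mice correlated at 0.036 for number 2 and 0.12 for number 3. With the replicate block 18430 probes (17420 higher and 1010 lower) and 5 of the 36 genes were called, and the sign changed for Nr2e3 (-0.18), Nr2f2 (0.10), Nr4a3 (-0.034), Nr0b2 (-0.14), Nr3c1 (0.0026), Rarg (0.0064), Esrra A_52_P198949 (0.10), Nr1h2 A_66_P112009 (-0.11), Thra A_52_P666930 (-0.046) and Thra A_66_P102879 (-0.15).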
